A study of Mus musculus with 2 samples.

Results

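The genes described here are the miRNA genes of the miR-17, miR-18 and miR-19 seed families in adult mouse cortex: Mir17, Mir18, Mir19a, Mir19b-1, Mir19b-2, Mir20a, Mir20b, Mir93, Mir106a and Mir106b. They were chosen by name, through their identifiers in the GENCODE M21 annotation, and not by any measured value. Earlier results of these data were known when they were chosen. They are 10 of the 2202 miRNA genes in the deposited tables. The labels describe B6CASTF1/J females aged 2 months, hybrids of a C57BL/6 and a CAST parent, and the tissue was the left cerebral cortex, with no treatment and no second genotype. There were 2 microRNA-seq libraries of RNA under 30 bases, numbered as separate females, and both form 1 group, so the design holds no contrast between conditions. They are called animal 1 and animal 2 after the replicate numbers in the labels. The labels also give both the same donor identifier. If it stands for a single mouse, the SDs over n = 2 below measure technical spread alone.

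A miRNA is cut from a hairpin in a longer transcript, and it represses messenger RNAs that pair with its seed, bases 2 to 8 of the mature strand. The miR-17 and miR-19 families are known for driving proliferation: Myc and E2f factors induce the Mir17 transcript, and miR-17 family members repress the cell cycle inhibitor Cdkn1a and the death factor Bcl2l11. In the cortex they are known chiefly from dividing neural progenitors of the embryo, where the Mir17 cluster favours their expansion. Adult cortex consists mainly of cells that have left the cycle.

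The mature sequences sort the genes into 3 groups by seed. All 15 genes looked up, the 10 members and 5 neighbours in their clusters, matched a RefSeq hairpin at the same position (GRCm38.p6, the assembly called mm10 in the labels). The sequences below run 5′ to 3′ with the seed in capitals, and those of the miR-17 seed come first.
miR-93-5p: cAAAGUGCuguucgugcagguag
miR-17-5p: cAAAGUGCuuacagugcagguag
miR-106b-5p: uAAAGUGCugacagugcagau
miR-20a-5p: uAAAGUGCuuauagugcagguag
miR-106a-5p: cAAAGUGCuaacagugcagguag
miR-20b-5p: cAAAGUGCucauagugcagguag
miR-18a-5p: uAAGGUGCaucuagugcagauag
miR-19a-3p: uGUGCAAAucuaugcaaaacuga
miR-19b-3p: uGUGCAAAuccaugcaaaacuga

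The 6 miR-17 arms differ from each other outside the seed, at 1 to 5 bases over the 15 pairs. Counting positions from the 5′ end of the arm named first, miR-17-5p and miR-106a-5p differ by U10A alone. miR-17-5p and miR-20a-5p differ by C1U and C12U. miR-93-5p stands farther off, with U10G, A11U, C12U and A13C against miR-17-5p. The miR-19 arms, which lie on the 3p side of their hairpins, differ by U11C between miR-19a-3p and miR-19b-3p. miR-19b-3p is the same sequence in Mir19b-1 and Mir19b-2, and no other arm printed above occurs whole in a hairpin of another gene in the RefSeq table. The deposited tables give 1 count per hairpin gene, so 5p and 3p arms were not told apart.

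The genes lie in 3 clusters (coordinates on mm10). The Mir17 cluster spans 836 bases at chr14:115043671-115044506, plus strand, and holds Mir17, Mir18, Mir19a, Mir20a and Mir19b-1, followed by Mir92-1. All 6 hairpins lie in an exon of the noncoding host transcript Mir17hg. The Mir106b cluster spans 498 bases at chr5:138165321-138165818, minus strand, with Mir106b, Mir93 and then Mir25. These 3 lie in introns of the protein-coding Mcm7 transcripts (Mcm7 is a subunit of the replicative helicase), and Mir93 and Mir25 also in an exon of a retained-intron Mcm7 transcript. The Mir106a cluster spans 875 bases at chrX:52741693-52742567, minus strand, in the order Mir106a, Mir18b, Mir20b, Mir19b-2, Mir92-2 and Mir363. It has no annotated host apart from the noncoding Kis2, which overlaps Mir106a by at most 5 bases.

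Animal 1 had 4415759 reads counted at miRNA genes and animal 2 had 2279562. Levels are CPM, the count scaled to 1000000 gene counts, with no scaling for length because mature arms of these genes are all 21 to 24 bases long. A count of 0 allows a true level of up to 3 counts, which is 0.679 CPM in animal 1 and 1.32 CPM in animal 2. These limits and the intervals below cover counting error within a library only, and not the spread between animals or preparations. The counts are of reads, and no molecular identifiers were used here. The cortical label was checked against neuron miRNAs: Mir132, Mir128-1, Mir137 and Mir138-1 lay between 3052 CPM (Mir137 in animal 2) and 79576 CPM (Mir132 in animal 2), while Mir9-2 had 10 and 4 counts. Reads that map to several places are kept in a separate entry, and whether any of them belong to Mir9-2 is not recorded.

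The 3 seeds were counted at very different levels: miR-17 seed genes made up nearly all of the family's counts, miR-18 a trace, and miR-19 almost none. Together the 10 members amounted to 0.198% of the counts of animal 1, with an exact Clopper-Pearson 95% interval of 0.193 to 0.202%, and 0.192% of those of animal 2, with one of 0.186 to 0.198%, or 0.195% ± 0.00407 (SD, n = 2). The 6 miR-17 seed genes took 8651 of the members' 8723 counts in animal 1 and 4344 of 4372 in animal 2, or 99.3% ± 0.131 of the members' counts (SD, n = 2). Mir18 took 0.825% (0.646 to 1.04%) and 0.618% (0.407 to 0.897%). The 3 miR-19 genes had 0 counts in animal 1 and 1 count in animal 2, which is 1 of 13095 over both libraries, or 0.00764% (exact interval 0.000193 to 0.0425%). Reads that map to several places are outside these counts. The miR-19 share may therefore leave out reads of miR-19b-3p, which Mir19b-1 and Mir19b-2 have in common, and the interval does not cover this.

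A level of 2 CPM in both animals was used as the mark of detection. It was reached by 6 of the 10 members, 18.8% of all miRNA genes and 36.6% of the 1018 with a mature sequence. All members belong to the let-7 genes and those numbered below 1000. Of these, 33.3% to 73.0% were detected, depending on the class of base composition, so the members' share was not set apart from that of like genes. The 6 were Mir93, Mir17, Mir106b, Mir20a, Mir18 and Mir106a. The 4 below it were Mir20b and the 3 miR-19 genes, and of these Mir19a and Mir19b-2 had no count in either library, as did 66.1% of all genes. The median of the 10 members was 9.96 CPM in animal 1 and 7.24 CPM in animal 2, beside 0 over all genes. Over the 6 detected members alone it was 184 and 168 CPM, and over the 415 detected genes 75.6 and 81.2 CPM.

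**Figure D1:**
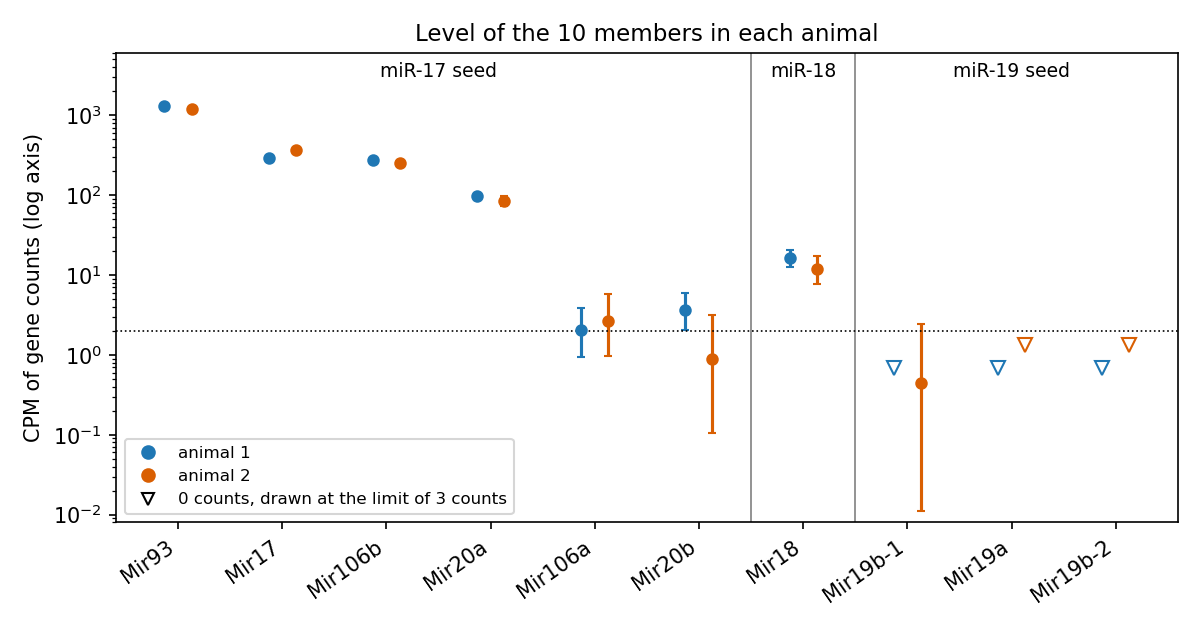
Level of each member in animal 1 (blue) and animal 2 (orange), in CPM on a log axis, grouped by seed, with exact 95% counting intervals. Open triangles mark 0 counts, drawn at the level of 3 counts, and the dotted line is 2 CPM. Mir93 stands highest at 1297 and 1198 CPM, and the miR-19 genes lie at or near the limit of the libraries.

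Mir93 was the leading member. It had 5726 counts in animal 1 and 2730 in animal 2, which is 1297 and 1198 CPM, with a mean of 1247 ± 70.1 CPM (SD, n = 2). It alone made up 65.6% of the members' counts of animal 1 (exact interval 64.6 to 66.6%) and 62.4% of those of animal 2 (61.0 to 63.9%). It ranked 82nd and 94th among all miRNA genes.

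Mir17, the first hairpin of its cluster, and Mir106b, the first of the Mcm7 group, came next. Mir17 had 1278 and 838 counts, or 289 CPM in animal 1 and 368 CPM in animal 2 (mean 329 ± 55.3, SD, n = 2). Mir106b had 1198 and 575 counts, or 271 and 252 CPM (mean 262 ± 13.5). Mir17 lay above Mir106b in both animals, and their ranges did not overlap, but the gap differed: Mir106b had 0.937 times the counts of Mir17 in the first animal (exact interval 0.866 to 1.02) but 0.686 times in the other (0.616 to 0.764). In animal 1 the 2 genes were therefore within counting error of each other.

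Mir20a, the fourth hairpin of the Mir17 cluster, had 424 and 193 counts, or 96.0 and 84.7 CPM (mean 90.3 ± 8.03, SD, n = 2). Mir18, the sole member with the miR-18 seed, had 72 and 27 counts, or 16.3 and 11.8 CPM (mean 14.1 ± 3.15). Each of these was below its neighbour in the order in both animals, by 2.90 times between Mir106b and Mir20a and by 6.42 times between Mir20a and Mir18.

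The lowest members with repeated counts were the 2 miR-17 seed genes of the X chromosome. Mir106a had 9 and 6 counts, or 2.04 and 2.63 CPM, and sat just above the mark of detection. Mir20b had 16 and 2 counts, or 3.62 and 0.877 CPM, and fell just below it in animal 2. The ranges of Mir106a and Mir20b overlapped, and their order turned between the animals. At this depth they could not be ranked.

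The miR-19 genes closed the order. Mir19a and Mir19b-2 had 0 counts in both libraries, and Mir19b-1 had 0 in animal 1 and 1 in animal 2. Their neighbours on the same transcript were counted: Mir17, upstream of Mir19a, was at least 426-fold higher than Mir19a (animal 1) and at least 279-fold higher (animal 2), taking 3 counts per library as the limit for Mir19a. Mir20a, directly downstream, was at least 141-fold and at least 64.3-fold higher.

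Sequence sharing differed among the miR-19 genes. Mir19b-1 and Mir19b-2 share 25 bases, the whole of miR-19b-3p included, and the tables keep a separate entry for reads that map to several places, which took 48.9% and 48.2% of the mapped reads. That entry stands apart from the gene entries, so the counts of these 2 genes may leave out reads of the shared arm and are uncertain as levels. Mir19a shares no more than 13 bases with any other hairpin in the RefSeq table, the same as Mir17 and Mir93, and was also at 0. Mir92-1 and Mir92-2, the cluster neighbours that are no members, share 22 bases, and miR-92a-3p occurs whole in both. They were counted at 686 and 476 CPM and at 19.7 and 24.1 CPM. These counts may likewise leave out reads of the shared arm. What lies behind the low miR-19 counts was not tested.

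Base composition was set beside the levels after these were known. miR-19a-3p, the one mature arm listed for Mir19a, is 34.8% G and C, and miR-19b-3p is 39.1%. The richest arm, by which genes are classed below, is 47.8% in Mir19b-1 and 41.7% in Mir19b-2. Mir20a, at 90.3 CPM, has arms of 39.1% and 40.9%, and Mir93 has arms of 52.2% and 59.1%. Of the 34 miRNA genes whose richest arm is under 35% G and C, 11 (32.4%) were detected and 20 had 0 counts in both animals. Of the 472 genes at 55% or more, 185 (39.2%) were detected and 132 were at 0. The share was lowest, 22.8%, among genes from 35% to under 40%, and 36.6% over all 1018 genes with a mature sequence. Among let-7 genes and those numbered below 1000, to which all members belong, 52.4% were detected under 35% G and C, with a median of 9.87 CPM, and 73.0% at 55% or more, with a median of 278 CPM. Between these ends the share did not rise steadily. It was 33.3% from 35% to under 40%, with a median of 0 CPM. From 40% to under 45% it was 55.1%, and from 45% to under 50% it was 57.5%. The part of base composition in the levels of the members was not tested.

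By cluster, the Mcm7 group gave most of the family's counts. Mir93 and Mir106b held 79.4% of the members' counts of animal 1 (exact interval 78.5 to 80.2%) and 75.6% of those of animal 2 (74.3 to 76.9%). The 5 members in Mir17hg held 20.3% (19.5 to 21.2%) and 24.2% (23.0 to 25.5%). The 3 members on the X chromosome held 0.287% and 0.183%, or 25 and 8 counts. Since the share of every cluster was counted in the same libraries, these are shares of counted reads and not of transcripts.

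**Figure D2:**
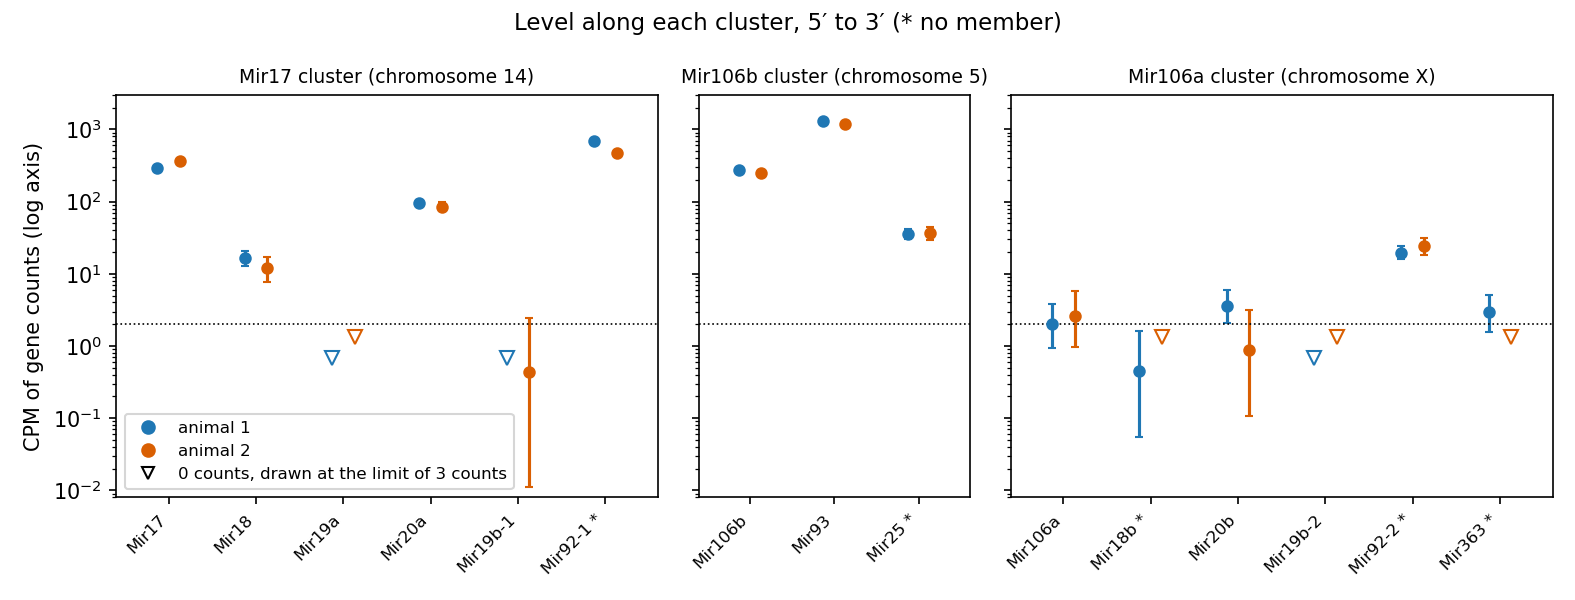
Level along each cluster from the 5′ to the 3′ hairpin of the transcript, in CPM on a log axis for animal 1 (blue) and animal 2 (orange), with exact 95% counting intervals. Asterisks mark neighbours that are no members, open triangles mark 0 counts drawn at 3 counts, and the dotted line is 2 CPM. Levels go up and down along each cluster, with the miR-19 genes at the bottom of the chromosome 14 cluster.

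Neighbours on 1 transcript were far from equal in level. In the Mcm7 group, Mir93 had 4.78 times the counts of Mir106b (exact interval 4.49 to 5.09) in animal 1 and 4.75 times (4.34 to 5.20) in animal 2, so the ratio differed between the animals by less than counting error. Mir25, a miRNA of the miR-92 seed that closes this cluster, had 35.3 and 36.4 CPM. Mir93 stood 36.7 times above it in animal 1 (31.3 to 43.3) and 32.9 times in animal 2 (26.4 to 41.4), again with overlapping intervals.

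The Mir17 cluster was less alike in the 2 animals. Mir17 had 3.01 times the counts of Mir20a (exact interval 2.70 to 3.37) in animal 1 and 4.34 times (3.71 to 5.10) in animal 2. Mir92-1, the last hairpin, had 2.37 times the counts of Mir17 in animal 1 (2.22 to 2.53) and 1.29 times in animal 2 (1.18 to 1.42). In both of these pairs the intervals did not overlap. Those of Mir20a over Mir18 did, at 5.89 (4.58 to 7.67) and 7.15 (4.76 to 11.1). The counts of Mir92-1 may leave out reads of the arm it shares with Mir92-2. A ratio within 1 library does not depend on the scaling of the library, but with 1 library per animal a difference between animals and one between library preparations cannot be told apart.

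The X-linked cluster was low throughout in its counts. Its highest gene was Mir92-2, which is no member. The counts of Mir92-2 and Mir19b-2 may leave out reads of the arms they share with Mir92-1 and Mir19b-1, so their levels are uncertain. Mir106a, whose 5p arm differs from that of Mir17 at a single base, lay below Mir17 by 142 times (exact interval 74.6 to 311) in animal 1 and by 139.7 times (63.9 to 382) in animal 2. Mir20b lay below Mir20a by 26.5 times in animal 1 (16.1 to 46.8) and had 2 counts against 193 in animal 2, a ratio of 96.5 with an interval of 26.4 to 803. Mir18b, the X-linked gene with the miR-18 seed, had 2 and 0 counts, and Mir363 had 13 and 0. The longest stretch in common is 13 bases for Mir106a and Mir17, 14 for Mir20b and Mir20a, and 17 for Mir18b and Mir18. No whole 5p arm of these pairs therefore fits both copies without a mismatch. Their counts are uncertain where a shorter or mismatched read fits both.

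Between the animals, the log2 ratios of the detected members ran from -0.34 to 0.43. By the exact interval of animal 1's share of each gene's 2 counts, set against its share of the library totals, 2 of the 6 detected members lay outside counting error, against 56.6% of the 415 detected genes. Mir93 was higher in animal 1 and Mir17 in animal 2, where 27.0% and 29.6% of detected genes lay. The other 4 were inside, among them Mir106a and Mir18, whose low counts leave wide intervals. With 6 genes, the members' share cannot be set apart from that of all detected genes. Mir20b, below the mark of detection, was 4.13-fold higher in animal 1, inside counting error (exact counting interval 0.971 to 37.0). The comparison sets 2 libraries against each other, so no p-value is given.

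The difference in Mir93 was small, 1.08-fold (exact counting interval 1.03 to 1.13), with a log2 ratio of 0.11 on the CPM + 1 scale. Mir17 was 1.27-fold higher in animal 2 (1.16 to 1.39), a log2 ratio of -0.34. Mir17 stayed lower in animal 1 with TMM factors (log2 ratio -0.32), with DESeq2 size factors (-0.34) and without the most abundant gene in the total (-0.29). With all reads as the total, the unmapped ones included, its log2 ratio was 0.19, but that total moved the median of the 415 detected genes by 0.46, and Mir17 lay below that median (a difference of -0.26). Mir106b at 1.08-fold (0.973 to 1.19), Mir20a at 1.13-fold (0.954 to 1.35) and Mir18 at 1.38-fold (0.873 to 2.23) had higher values in animal 1, and Mir106a had 0.774 times the level of animal 2 (0.246 to 2.64). The median absolute log2 ratio was 0.22 over the 6 detected members and 0.32 over all detected genes.

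**Figure D3:**
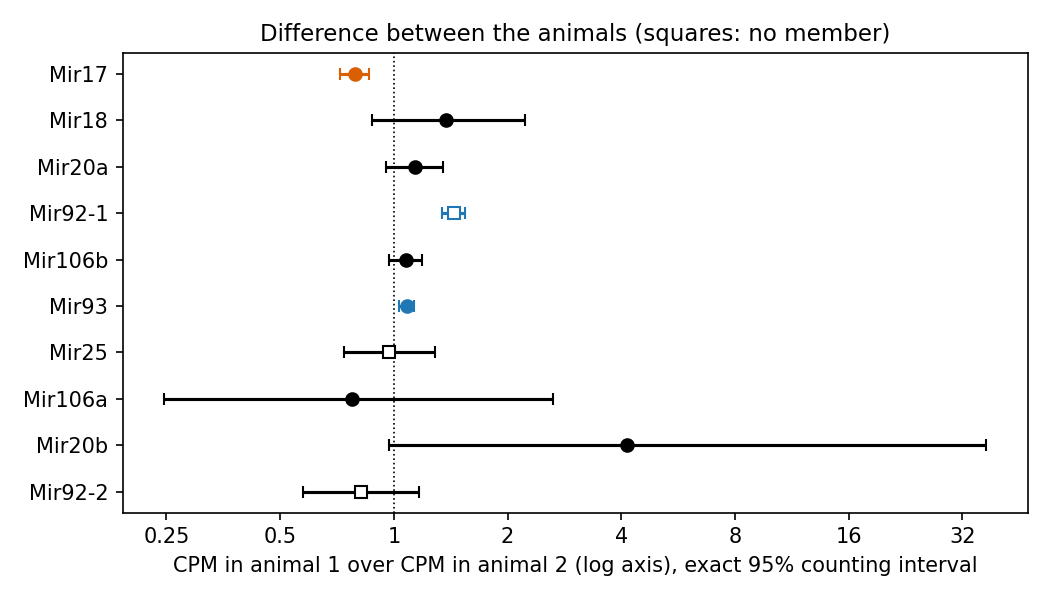
CPM in animal 1 over CPM in animal 2 on a log axis, with the exact 95% counting interval, for members (circles) and cluster neighbours (open squares) that had counts in both animals and more than 3 in all. Colour marks intervals that leave out 1, blue for higher in animal 1 and orange for higher in animal 2. Mir17 lies at 0.787 and Mir92-1, from the same transcript, at 1.44.

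Mir17 and Mir92-1 went opposite ways in their counts, and those of Mir92-1 may leave out reads of the arm shared with Mir92-2. Mir92-1 was 1.44-fold higher in animal 1 (exact counting interval 1.34 to 1.55), while Mir17 was higher in animal 2. Markers of several cell types also differed between the libraries beyond counting error. Both red cell miRNAs, Mir451a and Mir144, were detected and had a summed level of 425 CPM (animal 1) and 53.1 CPM (animal 2). The neuron list, with 4 of 5 markers detected, summed to 49222 and 97300 CPM, but its detected markers went both ways. Mir132, at 24389 and 79576 CPM, and Mir138-1, at 4329 and 5025 CPM, were higher in animal 2. Mir128-1, at 16164 and 9645 CPM, and Mir137, at 4338 and 3052 CPM, were higher in animal 1. Both oligodendrocyte markers, Mir219a-2 and Mir338, were detected and summed to 1634 and 3455 CPM. The astrocyte marker Mir29a had 8412 and 10012 CPM, and the endothelial marker Mir126a had 6662 and 9727 CPM. The leukocyte miRNAs Mir142 and Mir223, both detected, summed to 34.4 and 43.9 CPM, inside counting error (fold 0.785, exact interval 0.606 to 1.02). Markers of other tissues were also looked up. The liver marker Mir122 was detected at 60.9 and 36.8 CPM (fold 1.65, exact interval 1.29 to 2.14). Of the muscle markers, Mir206 was detected at 23.6 and 16.2 CPM, and Mir133a-1 had 0 counts in both animals. The part of any of these cell types in the values of Mir17 and Mir92-1 was not tested. In bulk tissue, fewer cells of a type and less RNA per cell cannot be told apart.

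**Figure D4:**
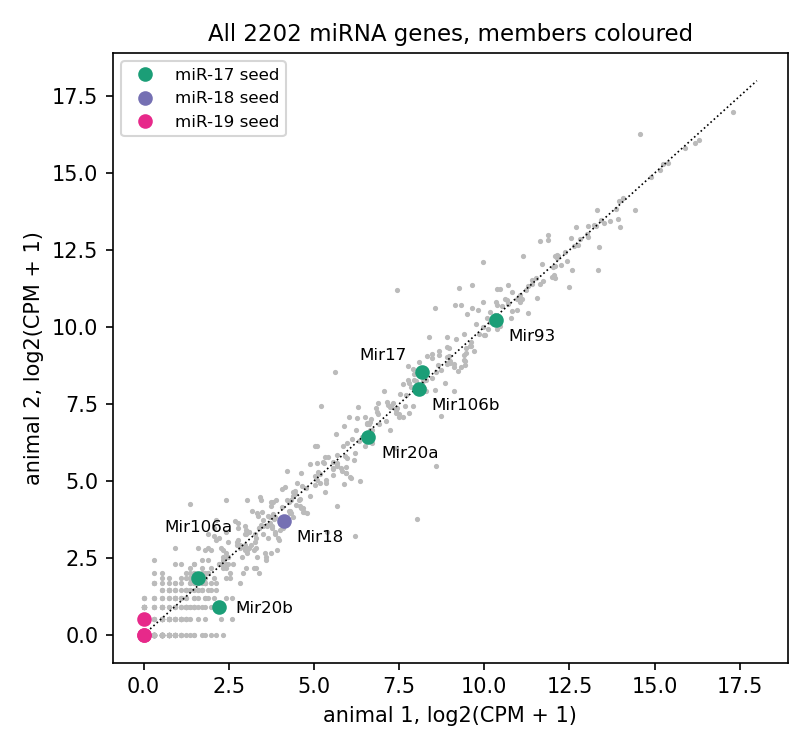
log2(CPM + 1) in animal 1 and animal 2 for all 2202 miRNA genes (grey), with the members coloured by seed and the line of equal levels dotted. The detected members lie near the line, with log2 ratios from -0.34 to 0.43, and the miR-19 genes lie at the origin or beside it.

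Among the 1018 measured genes with a mature sequence, few others carry these seeds. The remaining measured genes could not be searched. The seed AAAGUGC occurs in 7 measured genes, the 6 members and Mir6383, which had 0 counts in both animals. The miR-18 seed AAGGUGC occurs in Mir18 and Mir18b, and the miR-19 seed GUGCAAA in the 3 members alone. A seed that matches miR-17 shifted by a single base, AAGUGCU, marks miRNAs of pluripotent cells, and its 5 genes Mir291a, Mir294, Mir295, Mir302b and Mir302d had at most 2 counts in either library. Of the 7 pluripotent cell markers, which hold these 5, none was detected and 4 had 0 counts in both animals. Among the genes searched, the miR-17 seed in these libraries was counted almost wholly at Mir93, Mir17, Mir106b and Mir20a.

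The genes most like the leading members in level were sought by distance in log2(CPM + 1) over the 2 libraries, among detected genes that are no members. Nearest to Mir93 were Mir1839, at 1232 and 1190 CPM, and Mir181c, at 1349 and 1288 CPM. Nearest to Mir18 were Mir5099, at 15.2 and 11.4 CPM, and Mir1930, at 16.1 and 13.2 CPM. With 2 libraries this likeness says only that the levels lay close. No gene was sought for miR-19, as none of its genes was detected.

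All counts of the 10 members lay on the annotated strand. The opposite-strand column held 0 for each of them in both animals, and the unstranded column held the same numbers as the stranded one.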

How the data were processed

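MicroRNA-seq tables of 2 libraries were used, numbered as 2 animals in 1 group. The authors deposited unnormalized read counts per miRNA gene. Each library's deposited metadata names the build mm10 and annotation M21, while the aligner, trimming and filters are not named in the sources used here. Of 3 unlabelled count columns (unstranded, read strand, opposite strand), the read strand was used. The 4 summary rows were left out: they held 67.4% of reads in animal 1 and 77.5% in animal 2, of which unmapped reads were 23.4% and 47.1%.

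CPM, means with SD, log2(CPM + 1) ratios and exact Clopper-Pearson 95% intervals were computed with Python 3.11.15 and scipy 1.17.1, and the interval calls were tested on simulated data. No differential test was run. Alternative scalings came from edgeR 4.0.16 (TMM) and DESeq2 1.42.0. Other alternatives were the unstranded column, other totals, detection limits and pseudocounts, thinning the deeper library, and leaving out either library. Sequences were read from RefSeq (GRCm38.p6). Members and lists were chosen with earlier results of these data known. Genes named are the members, their cluster neighbours and hosts, the 2 genes nearest in level to the leading detected member of each seed, the markers and the genes that share a seed; Mir6383 was added after its values were seen.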

Additional observations from a re-analysis of the deposited data

Results flagged for a closer look

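Reads that map to several places have an entry of their own in the tables, apart from the gene entries used above, and came to 48.9% (animal 1) and 48.2% (animal 2) of all mapped reads. They are a signal in a part of the tables that no comparison here uses. Which of them came from the members, among these the shared arm of Mir19b-1 and Mir19b-2, is not recorded in the tables.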

How the results depend on the processing

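The members above 2 CPM in both animals numbered 6 with TMM factors, DESeq2 size factors, the unstranded column and the deeper library thinned, 5 at a limit of 10 CPM, and 8 when 1 count in either library sufficed. Leaving out either library gave 6 to 7, and a share of all members between 0.192 and 0.198%. With the unstranded column, whose gene total is smaller, the share was 0.208% for all members, 0.207% for the miR-17 seed and 0.161% for the Mir106b cluster. With the most abundant gene left out of the total, the shares were 0.228% for all members, 0.227% for the miR-17 seed, 0.0507% for the Mir17 cluster and 0.177% for the Mir106b cluster. As shares of all reads, they were 0.0538% for all members, 0.0534% for the miR-17 seed, 0.000399% for Mir18, 0.0118% for the Mir17 cluster, 0.0419% for the Mir106b cluster and 0.000132% for the Mir106a cluster. On that total 5 members lay outside counting error and the log2 ratio of Mir17 was 0.19, but it moves the median of all detected genes by 0.46, since it keeps the gap in unmapped reads between the libraries, and so does not bear on single members. The 2 members outside counting error stayed 2 in number with TMM, DESeq2, the unstranded column and thinning, and became 3 without the most abundant gene. The 7 members with a mean above 3 counts kept their places with the unstranded column, thinning and animal 2 alone, and 5 kept them in animal 1 alone, where Mir20b lay above Mir106a. No paired analysis was possible because there is a single group. Low counts limit what can be said of the miR-19 genes and the X-linked members, all at 16 counts or fewer. Those of Mir19b-1 and Mir19b-2 may also leave out reads of their shared arm. The part of depth in these counts was not tested beyond thinning the deeper library.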
